A study of Saccharomyces cerevisiae with 21 samples.

Results

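Disome ribosome-protected fragments (RPFs), which come from 2 ribosomes stacked against each other on the same mRNA, were compared on the NGD-CGA reporter between *dom34Δ ski2Δ* yeast and *slh1Δ dom34Δ ski2Δ* yeast. The members are the disome library of each strain, 2 of the 21 samples of the series, taken by their labels and not by their values. Each library was deposited as 3 traces along the reporter, for RPFs of 46, 54 and 60 nt. The other libraries of the series are mostly monosome RPFs, and those of the same strains, 2 per strain, are used here as a yardstick of how far libraries of one strain differ. The label of the second *slh1Δ dom34Δ ski2Δ* monosome library carries the fragment range of a disome library, 40 to 80 nt.

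The *dom34Δ ski2Δ* cells lack *DOM34* and *SKI2*, and the *slh1Δ dom34Δ ski2Δ* cells lack *SLH1* (YGR271W, chromosome VII, 1031791 to 1037694 in R64) as well. A strain with all 3 genes has no disome library among the samples, so each value describes Slh1 in cells that already lack Dom34 and Ski2. Cells of both strains carried the reporter in the genome at *ADE2*, were shifted to medium with galactose to induce it and were frozen after fast filtration. Polysomes were pelleted and digested with RNase I, with cycloheximide and tigecycline in the buffer, the disome peak was taken from a sucrose gradient, and RNA of 40 to 80 nt was cut from a gel. There is 1 disome library per strain and no replicate. Intervals (95%) and limits of detection therefore cover counting error alone, and since no removal of PCR duplicates is stated, reads are not independent molecules.

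Ribosomes decode CGA, an arginine codon, slowly, and a run of CGA codons stalls them, so that following ribosomes run into the stalled one. In yeast, such collisions are marked by the ubiquitin ligase Hel2. Slh1, a helicase, takes stalled ribosomes off the intact mRNA, whereas the endonuclease Cue2 cuts the mRNA within the collided ribosomes. Dom34 rescues ribosomes that have run to the 3′ end of a cut mRNA, and Ski2 helps the exosome to degrade the 5′ fragment, so cut mRNAs with ribosomes at their ends persist when both are absent. A disome RPF of 46 nt (44 to 48 nt) is read as one whose lead ribosome stands at the end of an mRNA, and the trace gives its 3′ end. RPFs of 54 nt (51 to 54 nt) and 60 nt (57 to 62 nt) come from disomes on uncut mRNA, and the trace gives the lead A site, that is the A site of the front ribosome, placed 47 nt in from the start of the RPF. The shorter of these 2 has a lead ribosome like that of a 21 nt monosome RPF, with an empty A site, and the longer one like that of a 28 nt RPF.

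The reporter covers 1586 nt, with GFP, a 2A sequence, a FLAG tag and *HIS3*, which is interrupted by (CGA)12 at nt 1111 to 1146. Position 0 is where the second CGA codon begins. The tract then covers -3 to 32, the start codon lies at -1113 and the stop codon at 417. The 300 nt before the tract are called the queue. *HIS3* of the reporter encodes the protein of the yeast gene (219 of 219 residues compared were identical, YOR202W, chromosome XV, 721946 to 722608 in R64) with other codons, so that 80.4% of the nt are identical. None of the stretches of 44 nt in the reading frame occurs in R64, and none is repeated within the reporter, the (CGA)12 included, so disome RPFs can be placed where shorter RPFs cannot.

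The last 90 nt before the tract hold the highest disome positions, and are shown to place them. Capitals mark the 3 codons of these 90 nt that hold the highest positions of 46 nt 3′ ends in each strain, from 5′ (-93) to 3′ (-4).
46 nt, *dom34Δ ski2Δ*: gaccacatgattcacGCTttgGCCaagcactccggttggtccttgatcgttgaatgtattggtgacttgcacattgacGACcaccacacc
46 nt, *slh1Δ dom34Δ ski2Δ*: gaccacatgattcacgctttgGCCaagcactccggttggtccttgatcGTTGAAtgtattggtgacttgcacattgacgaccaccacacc
In the same 90 nt, capitals mark the codons of the 3 highest positions of lead A sites, with the 54 and 60 nt RPFs summed.
Lead A sites, *dom34Δ ski2Δ*: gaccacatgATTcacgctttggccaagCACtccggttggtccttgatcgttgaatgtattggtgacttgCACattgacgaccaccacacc
Lead A sites, *slh1Δ dom34Δ ski2Δ*: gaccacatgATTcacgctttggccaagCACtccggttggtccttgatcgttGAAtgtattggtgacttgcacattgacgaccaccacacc
One of the 46 nt codons (GCC) and a pair of the lead codons (ATT and the first CAC) are shared, whereas the others move between the strains.

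The *dom34Δ ski2Δ* disome library held 279879 reads, so 1 read is worth 3.57 rpm (reads scaled to the depth of the library) and 3 reads, used as the limit of detection, 10.7 rpm. The *slh1Δ dom34Δ ski2Δ* disome library held 457397 reads, with 2.19 rpm for 1 read and a limit of 6.56 rpm. The reporter took 7.39% (Wilson interval 7.30 to 7.49%) and 11.6% (11.5 to 11.7%) of these reads. In the 4 monosome libraries, with 9096523 to 12634641 reads, it took 0.788 to 2.08%.

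The main difference lay in the size mix. With Slh1 present, disomes in the queue were mostly 60 nt RPFs, and 46 nt RPFs made up 11.1% (10.7 to 11.6%) of the 18539 reads. Without Slh1, 46 nt RPFs made up 37.3% (36.8 to 37.7%) of the 47925 reads, a difference of 26.2 percentage points (25.5 to 26.8). The monosome libraries moved the same way, with 16 nt RPFs at 12.1 and 11.96% of the 3 sizes in *dom34Δ ski2Δ* and at 27.9 and 30.6% in *slh1Δ dom34Δ ski2Δ*. The libraries of one strain thus lay within a few points of each other, and the strains did not overlap.

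In rpm, 46 nt RPFs in the queue came to 7357 with Slh1 and to 39049 without it, a ratio of 5.31 (exact Poisson interval 5.07 to 5.56). Lead A sites of 54 and 60 nt came to 58883 and 65728 rpm, a ratio of 1.12 (1.095 to 1.14). The direction of this second ratio rests on the scale, since as a share of all disome RPFs on the reporter it was 0.714 and per lead A site in the far upstream part 0.921. The 46 nt ratio was 3.40 and 4.38 on these scales. Taken as shares of the disome RPFs on the reporter, all rpm ratios are 0.640 times as large, so that any rpm ratio between 1 and 1.56 turns its direction. Within the lead A sites, 54 nt RPFs came to 6796 and 11917 rpm (ratio 1.75, 1.66 to 1.85) and 60 nt RPFs to 52087 and 53811 rpm (ratio 1.03, 1.012 to 1.05). The share of 54 nt RPFs among lead A sites of the queue was accordingly 11.5% (11.1 to 12.04%) with Slh1 and 18.1% (17.7 to 18.6%) without it. Among monosomes the 21 nt share of the 21 and 28 nt RPFs there was 8.32 and 8.46% in *dom34Δ ski2Δ*, and 11.8 and 9.69% in *slh1Δ dom34Δ ski2Δ*.

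The traces along the queue and the tract show where these reads lay. In both strains lead A sites ran from the tract out to about -240, and others lay beyond a nearly empty stretch at -273 to -244. In *dom34Δ ski2Δ* most lay in the 90 nt next to the tract.

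**Figure D1:**
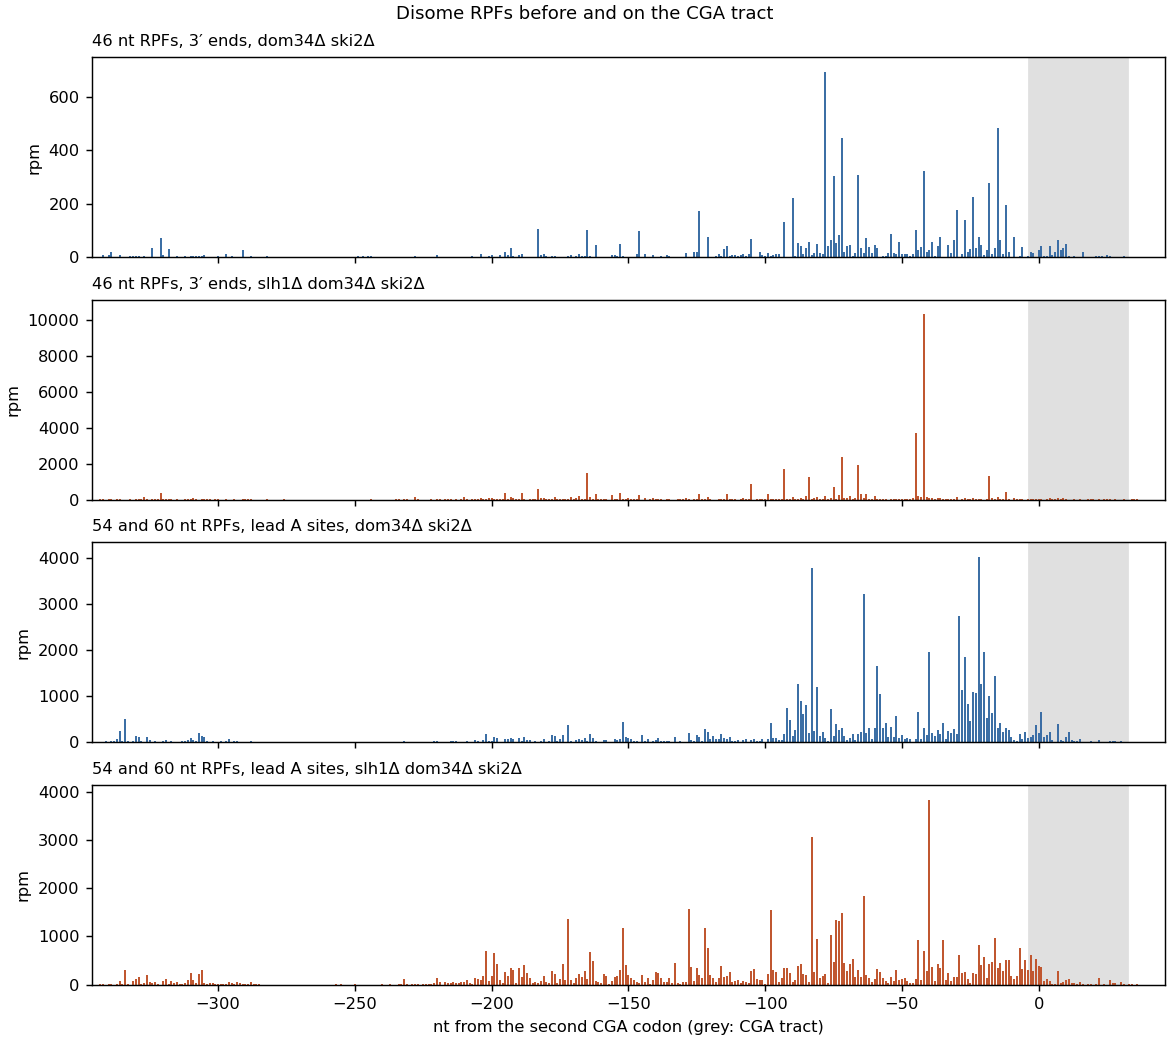
Disome RPFs in rpm at each nt from the 2A sequence to just after the tract, for 46 nt 3′ ends (upper pair) and lead A sites of 54 and 60 nt RPFs (lower pair) in the library of each strain, with the tract in grey and a rpm axis of its own for each panel. The 46 nt trace without Slh1 is dominated by -42, with 10337 rpm, and more of its lead A sites lie over 90 nt before the tract (41.8% of those in the queue) than in *dom34Δ ski2Δ* (13.8%).

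Of the lead A sites in the queue, 13.8% (13.3 to 14.3%) lay more than 90 nt before the tract with Slh1 and 41.8% (41.2 to 42.3%) without it. The 30 nt next to the tract held 39.3% (38.6 to 40.1%) and 16.2% (15.8 to 16.6%). The median lead A site accordingly moved from -56 to -83. For 28 nt monosome RPFs the median was -71 in both *dom34Δ ski2Δ* libraries and -104 in both *slh1Δ dom34Δ ski2Δ* libraries. The median of the 46 nt 3′ ends was -70 with Slh1 and -66 without it. For 16 nt monosome 3′ ends it was -30 in both *dom34Δ ski2Δ* libraries, and -84 and -69 in the *slh1Δ dom34Δ ski2Δ* libraries. By the median, the 16 nt ends thus lay further upstream without Slh1, which the 46 nt ends did not. As shares of the queue, however, 46 nt ends also lay further from the tract without Slh1. More than 90 nt before it lay 17.6% of them with Slh1 and 25.1% without it, a difference of 7.52 percentage points (5.70 to 9.23). The 30 nt next to the tract held 28.8% and 7.37% of them, a difference of -21.4 points (-23.5 to -19.5).

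In windows of 30 nt, the ratio of lead A sites without Slh1 over those with Slh1 was 0.460 (0.443 to 0.478) next to the tract, at -33 to -4. It was 1.02 (0.977 to 1.07) at -63 to -34 and 0.986 (0.951 to 1.02) at -93 to -64. Further upstream it lay at 2.96 (2.73 to 3.22), 3.45 (3.16 to 3.78), 3.30 (3.01 to 3.63), 4.38 (3.92 to 4.91) and 5.45 (3.82 to 8.02) in the next 5 windows, the last of which is -243 to -214. In rpm and on both other scales, lead A sites without Slh1 were thus fewer in the 30 nt before the tract as a whole and more frequent between -243 and -94. Within those 30 nt the ratio was not even, as the last codons before the tract, described further on, lay above 1. The window at -273 to -244 was nearly empty, with 2 and 23 lead A sites, and at -303 to -274 the ratio was 1.64 (1.26 to 2.15).

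The 28 nt monosome RPFs of the same strains gave ratios of 0.696 and 0.987 next to the tract in the 2 sets of libraries, and of 3.60 to 4.72 at -123 to -94 and 5.64 to 6.40 at -213 to -184. At -93 to -64, however, the monosome ratios were 3.67 and 3.56 against 0.986 for disomes. The 46 nt 3′ ends had a ratio of 1.36 (1.23 to 1.499) next to the tract, of 14.0 (12.5 to 15.7) at -63 to -34 and of 3.73 (3.46 to 4.02) at -93 to -64. Between -243 and -94 their ratio ranged from 4.04 to 20.6.

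**Figure D2:**
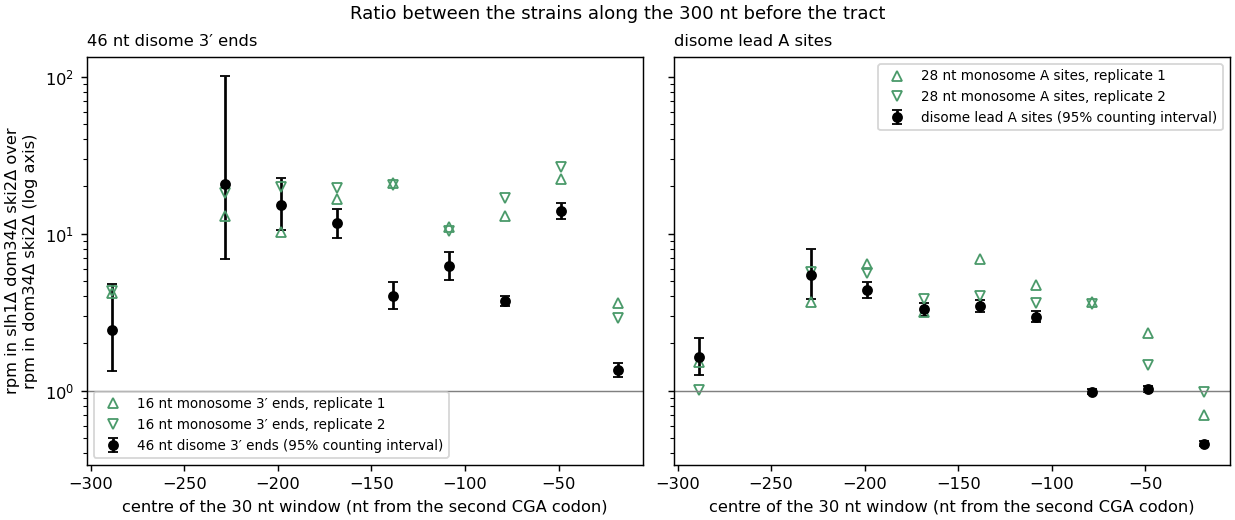
Ratio of rpm in *slh1Δ dom34Δ ski2Δ* over *dom34Δ ski2Δ* (log axis) in windows of 30 nt before the tract, for disome RPFs (black, with 95% counting intervals) and for monosome RPFs of each set (green triangles), without the window at -273 to -244, which held 8 reads of 46 nt. Lead A sites run from 0.460 next to the tract to 5.45 at -243 to -214.

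Counted by codon, 114 codons of the reporter held at least 20 lead A sites in the 2 libraries together. Of these, 64 were more than 2-fold higher in rpm without Slh1, which is 56.1%, and 9 were more than 2-fold lower, which is 7.89%. As shares of the reporter, 37 codons were higher and 19 lower, the 9 among them. In the queue, 41 of the 50 codons before -93 were higher and none was lower, whereas of the 10 codons at -33 to -4, 2 were higher and 4 lower. For 46 nt 3′ ends, 63 of 85 codons were higher (74.1%) and 3 lower (3.53%). As a measure of spread, monosome libraries of the same strain differed by more than 2-fold at 19.0% (*dom34Δ ski2Δ*) and 15.8% (*slh1Δ dom34Δ ski2Δ*) of codons for 16 nt RPFs, and at 14.1% and 12.5% for 28 nt RPFs. No pair of disome libraries of one strain exists to give this figure for disomes.

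The 9 codons with fewer lead A sites in rpm without Slh1, named after their values were seen, lay at -339, -90, -87, -60, -57, -30, -27, -24 and -21. Apart from the first, each lies 30, 60 or 90 nt before one of CGA codons 2 to 5, the codons at 0, 3, 6 and 9. Such places cover 12 of each 30 nt (40.0%). The codons at -84, -81, -54 and -51 also lie there but were not more than 2-fold lower in rpm. The lowest ratio was 0.129 (0.109 to 0.151) at -27 (TTG), where lead A sites came to 3137 rpm with Slh1 and to 404 rpm without it. At -24 (CAC) they came to 6174 and 1296 rpm, and at -60 (GGT) to 2998 and 691 rpm.

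The 12 nt at -30 to -19 lie 30 nt before CGA codons 2 to 5. They held 73.9% (72.8 to 74.9%) of the lead A sites of their 30 nt window in *dom34Δ ski2Δ* and 35.8% (34.5 to 37.2%) in *slh1Δ dom34Δ ski2Δ*, where an even spread would give 40.0%. At -60 to -49 the shares were 49.8% (47.997 to 51.6%) and 17.5% (16.5 to 18.6%), and at -90 to -79 they were 56.6% (55.2 to 58.0%) and 35.4% (34.3 to 36.4%). In the last of these stretches, position -83 alone held 1060 of 2723 lead A sites with Slh1 and 1397 of 2745 without it. The shares were not taken without this position. With Slh1 the shares lay above an even spread at all 3 steps, and without it they lay below. The stretches were picked after the values of their codons had been seen, so these shares are no separate support for a spacing of 30 nt. The 28 nt monosome RPFs differed in the same direction at all 3 steps, with both *dom34Δ ski2Δ* libraries (42.9 to 82.0%) above both *slh1Δ dom34Δ ski2Δ* libraries (12.5 to 63.4%) at each. At -30 to -19, however, the *slh1Δ dom34Δ ski2Δ* monosome libraries held 63.4 and 57.1%, above an even spread, unlike the disomes of that strain.

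Inside these 3 stretches, the ratio of lead A sites was 0.223 (0.211 to 0.236), 0.359 (0.330 to 0.391) and 0.617 (0.585 to 0.651) at 30, 60 and 90 nt from the stall. In the 18 nt around each, it was 1.13 (1.06 to 1.199), 1.68 (1.58 to 1.79) and 1.47 (1.39 to 1.54). In rpm, the lower level next to the tract in the library without Slh1 lay in the stretch in step with CGA codons 2 to 5. That stretch had been picked after its values were seen. As shares of the reporter the ratios around the stretches at 30 and 90 nt also fall below 1, but they stay above those inside.

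**Figure D3:**
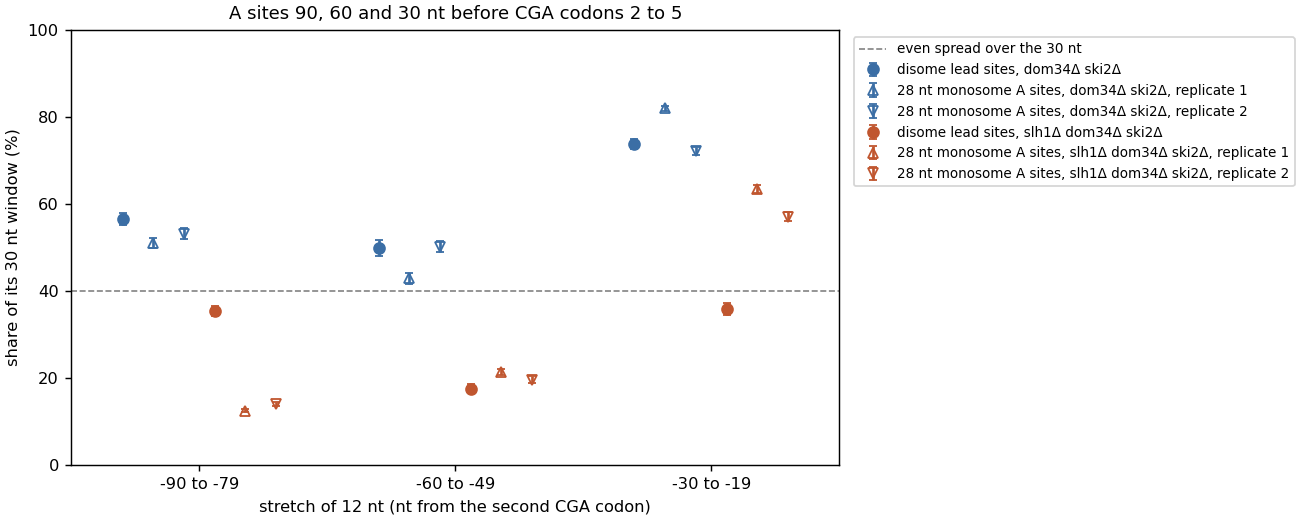
Share of A sites that fall in the 12 nt lying 90, 60 and 30 nt before CGA codons 2 to 5, in percent of the 30 nt window around each, with 95% Wilson intervals, for disome lead A sites (circles) and 28 nt monosome A sites (triangles) of *dom34Δ ski2Δ* (blue) and *slh1Δ dom34Δ ski2Δ* (red). All blue points lie above all red points at each step, and the dashed line is the 40.0% of an even spread.

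The single positions of the queue were led by -22 in *dom34Δ ski2Δ*, the third nt of a histidine codon (CAC, His3 residue 86), with 1125 lead A sites (4020 rpm) against 381 (833 rpm) without Slh1, a ratio of 0.207 (0.184 to 0.233). In *slh1Δ dom34Δ ski2Δ* the highest was -40, in the GAA of glutamate 80, with 546 (1951 rpm) and 1754 lead A sites (3835 rpm), a ratio of 1.97 (1.78 to 2.17). Shared peaks stood at -83 in the ATT of isoleucine 66, with 3787 and 3054 rpm, and at -64 in the CAC of histidine 72, with 3216 and 1828 rpm. Most of these reads were 60 nt RPFs, such as 1091 of the 1125 at -22 and 1670 of the 1754 at -40. The 10 highest lead positions of the strains had 3 in common, -83, -64 and -40.

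The 46 nt 3′ ends of *slh1Δ dom34Δ ski2Δ* were concentrated on 2 neighbouring codons. At -42, the first nt of GAA (glutamate 80), the library with Slh1 held 90 reads (322 rpm) and the library without it 4728 reads (10337 rpm), a ratio of 32.1 (26.1 to 40.1). At -45, the first nt of GTT (valine 79), the values were 28 reads (100.04 rpm) and 1713 reads (3745 rpm), a ratio of 37.4 (25.8 to 56.5). These 2 positions held 5.73% (4.81 to 6.82%) of the 46 nt RPFs of the queue with Slh1 and 36.1% (35.4 to 36.8%) without it. Leaving out the highest position of each library lowered the 46 nt ratio of the queue from 5.31 to 4.31. Position -42 was the fourth highest with Slh1 and the highest without it.

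At -72, the first nt of GCC (alanine 70), the values were 125 reads (447 rpm) and 1088 reads (2379 rpm), a ratio of 5.33 (4.42 to 6.46). At -78 (GCT, alanine 68), the highest 46 nt position of *dom34Δ ski2Δ*, they were 194 reads (693 rpm) and 102 reads (223 rpm), a ratio of 0.322 (0.251 to 0.411). At -15 (GAC, aspartate 89) they were 135 reads (482 rpm) and 67 reads (146 rpm), a ratio of 0.304 (0.223 to 0.410). The 2 highest 46 nt positions with Slh1, -78 and -15, thus held fewer reads per depth without it, while -72 and -42, which came next, held more. By codon, 46 nt ends were more than 2-fold lower without Slh1 at 3 codons, -78, -54 (TCC) and -15, of which -54 was named after its values were seen.

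The lead ribosome of a 46 nt RPF should resemble the ribosome of a 16 nt monosome RPF, so the ends were set beside those of the monosome libraries. At -42 the 16 nt RPFs came to 22.9 and 27.9 rpm in *dom34Δ ski2Δ*, and to 734 and 926 rpm in *slh1Δ dom34Δ ski2Δ*, where this was the highest 16 nt position of the queue. At -45 they came to at most 0.330 rpm in *dom34Δ ski2Δ* and at most 1.504 rpm in *slh1Δ dom34Δ ski2Δ*. At -72 they came to at most 0.103 rpm in the 4 libraries, that is 0 or 1 read, although the disome library without Slh1 held 1088 ends of 46 nt there. The 15, 16 and 17 nt that end at these positions each occur once in R64 and the reporter, as do the 44, 46 and 48 nt. How an aligner that allows mismatches treats them was not tested. Nor was it tested whether the 46 nt RPFs at -45 and -72 come from ribosomes at the end of an mRNA.

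Of the 46 nt ends of the queue in *dom34Δ ski2Δ*, 38.6% (36.5 to 40.7%) and 40.8% (38.7 to 42.98%) lay where the first and the second 16 nt library had at most 3 reads. In *slh1Δ dom34Δ ski2Δ* these shares were 18.6% (18.0 to 19.1%) and 19.2% (18.6 to 19.8%). The 10 highest 46 nt positions shared 3 with the 10 highest 16 nt positions in both *dom34Δ ski2Δ* libraries, and 5 and 4 in the *slh1Δ dom34Δ ski2Δ* libraries, whereas the 2 monosome libraries of each strain shared 9 of 10.

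The 46 nt 3′ ends had a preferred place within the codon, which differed between the queue and the tract. In the queue, 74.9% (73.0 to 76.8%) of the 46 nt 3′ ends with Slh1 and 85.7% (85.2 to 86.2%) without it lay on the first nt of a codon of the reading frame. The 16 nt ends did so in 87.6 to 92.1% in the 4 monosome libraries. Far upstream the 46 nt shares were 70.7% (62.9 to 77.5%) and 78.8% (76.0 to 81.3%). On the tract most 46 nt ends lay on the second nt instead, 70 of 111 reads with Slh1 (63.1%, 53.8 to 71.5%) and 152 of 279 without it (54.5%, 48.6 to 60.2%).

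Lead A sites had less frame. Among 60 nt RPFs of the queue, 21.6% lay on the first, 39.0% on the second and 39.4% on the third nt with Slh1, and 22.7, 39.1 and 38.2% without it. The 28 nt monosome RPFs had 65.3 to 73.9% on the second nt. On the tract, 54 nt RPFs lay on the second nt at 55.0% (51.03 to 58.9%) with Slh1 and 48.1% (44.999 to 51.3%) without it. The 60 nt RPFs of the tract lay on the first and second nt at 29.0% (24.02 to 34.6%) and 44.1% (38.4 to 49.95%) with Slh1, and at 48.7% (45.07 to 52.3%) and 25.4% (22.3 to 28.7%) without it. The frame of the lead A sites was therefore nearly the same in both strains in the queue, whereas that of 60 nt RPFs on the tract differed. For RPFs of 51 to 54 nt and of 57 to 62 nt alike, 1 offset had been used, whose part in the weak frame was not tested.

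To describe the spacing, the 300 positions of the queue were correlated with themselves and with the monosome libraries at shifted positions. Positions of one mRNA share its sequence and are not independent, so r is given as a description. Within a library, distances of 15 to 75 nt were searched, and there was no peak at 30 nt. On the linear scale, lead A sites of *dom34Δ ski2Δ* correlated best with those 61 nt upstream (r = 0.562, against 0.198 at 30 nt), and those of *slh1Δ dom34Δ ski2Δ* with those 24 nt upstream (r = 0.372, against 0.179 at 30 nt).

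A distance of 30 nt appeared between disomes and monosomes. On the scale of log2(reads + 1), 60 nt lead A sites correlated best with the 28 nt A sites 30 nt upstream, the place of the trailing ribosome, in all 4 pairs of libraries. There r was 0.626 and 0.675 in *dom34Δ ski2Δ* and 0.697 and 0.699 in *slh1Δ dom34Δ ski2Δ*, against 0.585 to 0.630 with no shift. On the linear scale the best shift was again 30 nt upstream in *slh1Δ dom34Δ ski2Δ* (r = 0.597 and 0.524) but 1 nt upstream in *dom34Δ ski2Δ* (r = 0.594 and 0.502). The 46 nt 3′ ends correlated best with 16 nt 3′ ends at the same position in *slh1Δ dom34Δ ski2Δ*, with r = 0.6004 and 0.611 on the log2 scale and 0.595 and 0.5999 on the linear scale. In *dom34Δ ski2Δ* the best shift was 0 and 15 nt upstream on the log2 scale and 27 nt upstream in both libraries on the linear scale.

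**Figure D4:**
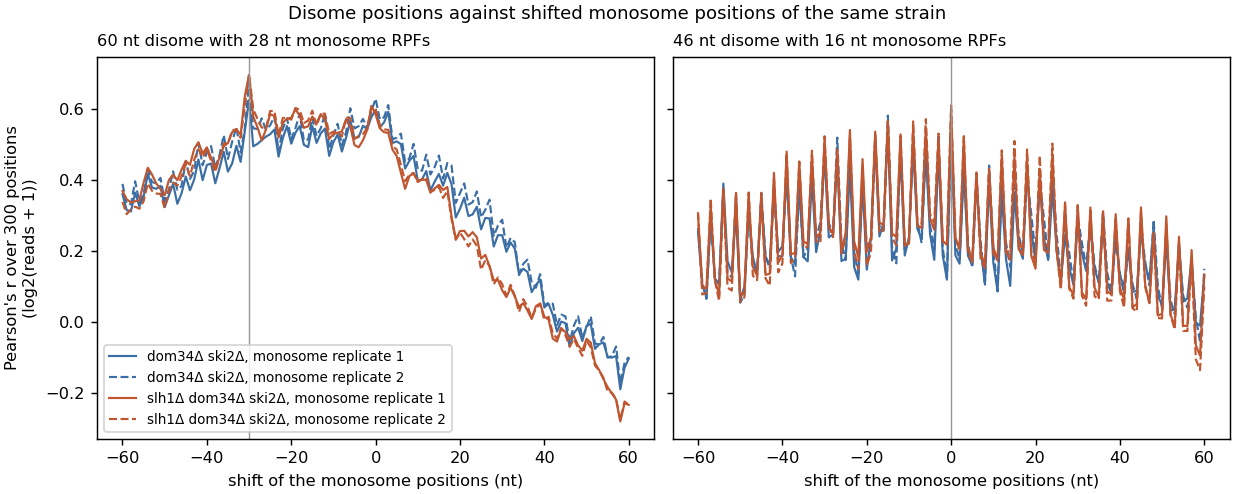
Pearson's r over the 300 positions of the queue, as log2(reads + 1), between disome positions and the monosome positions of the same strain shifted by -60 to 60 nt, for 60 with 28 nt A sites (left) and 46 with 16 nt 3′ ends (right), with 1 line per monosome library. The left lines peak at -30 nt, with r of 0.626 to 0.699, and the right lines peak every 3 nt.

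On the tract, lead A sites came to 3180 rpm (890 reads) with Slh1 and 3697 rpm (1691 reads) without it, a ratio of 1.16 (1.07 to 1.26). As a share of the disome RPFs on the reporter this ratio was 0.744, and per lead A site far upstream 0.959, so its direction too rests on the scale. The codons did not move together. On the first CGA codon, lead A sites were 650 and 1434 rpm, a ratio of 2.21 (1.87 to 2.61), and on codons 2 to 5 they were 2183 and 1635 rpm, a ratio of 0.749 (0.672 to 0.835). On codons 6 to 12 they were 347 and 627 rpm, a ratio of 1.81 (1.43 to 2.30), and on the twelfth codon alone 6 and 34 reads, a ratio of 3.47 (1.44 to 10.1).

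The 2 codons in front of the tract, at -9 to -4 and outside the rule for named positions, resembled the first CGA codon, with 640 and 2195 rpm, a ratio of 3.43 (2.92 to 4.05). In rpm and as shares of the reporter, lead ribosomes without Slh1 were therefore more frequent from 2 codons before the tract to its first codon and fewer on the second to the fifth codon taken as a group. On codons 6, 7 and 8 the ratios were 1.013, 1.16 and 1.15, with intervals that include 1, and on codons 9 to 12 they ranged from 2.33 to 3.47. The 2 highest single positions of the tract were 1 (650 rpm) and 7 (386 rpm) with Slh1, and -3 (608 rpm) and -1 (533 rpm) without it. At -3, the ratio was 5.003 (3.496 to 7.37), from 34 and 278 reads.

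Over the whole tract, 54 nt RPFs made up 68.7% (65.5 to 71.6%) of lead A sites with Slh1 and 57.1% (54.8 to 59.5%) without it, but this share differed along the tract. On codons 2 to 5 taken as a group, 54 nt RPFs made up 70.5% (66.8 to 74.0%) of lead A sites with Slh1 and 74.7% (71.5 to 77.7%) without it. For the group this is a difference of 4.19 percentage points (-0.557 to 8.97) that counting error alone could give. The group joins opposite differences, however. On codon 2 the difference was -9.64 points (-15.9 to -3.06). On codons 3, 4 and 5 it was 14.3 (2.65 to 25.1), 20.8 (9.23 to 31.7) and 13.7 points (1.84 to 25.3). On the first codon they made up 60.4% (53.2 to 67.3%) and 31.6% (28.1 to 35.2%), a difference of -28.9 points (-36.5 to -20.8). The 60 nt RPFs there were 257 and 982 rpm, a ratio of 3.82 (2.97 to 4.96), and the 54 nt RPFs 393 and 453 rpm, a ratio of 1.15 (0.909 to 1.46). Among the monosomes, the 21 nt share on the first codon was 35.3 and 43.8% in *dom34Δ ski2Δ* and 27.8 and 40.3% in *slh1Δ dom34Δ ski2Δ*, so the libraries of the strains overlapped there. The codons from the sixth on had 54 nt shares of 72.2% (62.5 to 80.1%) and 69.7% (64.1 to 74.7%).

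**Figure D5:**
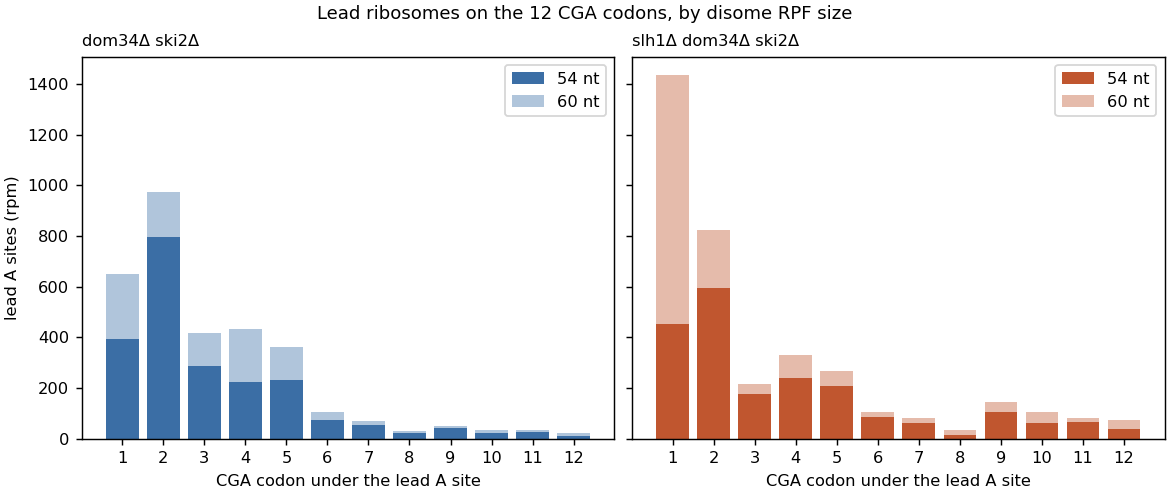
Lead A sites in rpm on each of the 12 CGA codons, split into 54 nt RPFs (dark) and 60 nt RPFs (light), in *dom34Δ ski2Δ* (left) and *slh1Δ dom34Δ ski2Δ* (right). The highest codon is the second with Slh1 (972 rpm) and the first without it (1434 rpm), where most RPFs are 60 nt.

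The 46 nt 3′ ends on the tract were few, 111 reads (397 rpm) and 279 reads (610 rpm), a ratio of 1.54 (1.23 to 1.93) against 5.31 in the queue, and of 0.984 against 3.40 as shares of the reporter. They made up 4.75% (3.96 to 5.68%) of the 46 nt RPFs of the reporter with Slh1 and 1.46% (1.30 to 1.64%) without it. No position of the tract held more than 18 and 43 reads of 46 nt.

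More than 300 nt before the tract, lead A sites came to 3473 rpm (972 reads) and 4209 rpm (1925 reads), a ratio of 1.21 (1.12 to 1.31) that turns to 0.775 as shares of the reporter, and made up 5.30% and 5.71% of lead A sites of the reporter. For 21 and 28 nt monosome RPFs this part held 31.7 to 34.9% with Slh1 and 11.01 to 13.5% without it. The disome sites far upstream were gathered near the 2A sequence, at which ribosomes pause while they release one peptide and begin the next. The highest lead position of both strains was -334, the third nt of a CAA, with 138 and 140 reads (493 and 306 rpm). Over the last glycine and proline codons of the 2A sequence, at -309 to -304, lead A sites were 557 and 719 rpm, a ratio of 1.29 (1.06 to 1.57), or 0.825 as shares of the reporter. Upstream of -400, in GFP, 713 nt held only 251 and 396 lead A sites (897 and 866 rpm), a ratio of 0.965 (0.822 to 1.14).

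The 46 nt 3′ ends far upstream came to 525 and 2007 rpm, a ratio of 3.82 (3.21 to 4.58), and upstream of -400 to 200.1 and 398 rpm, a ratio of 1.99 (1.47 to 2.73). Their highest position in both strains was -321, the first nt of a GAG, with 20 reads (71.5 rpm) and 180 reads (394 rpm), a ratio of 5.51 (3.46 to 9.23). It lies 15 nt before the last proline codon of the 2A sequence at -306. Only without Slh1 did -327 (71 reads) and -384 (52 reads) rank among the 3 highest, with 1 and 2 reads in *dom34Δ ski2Δ*. Here too the share of 46 nt RPFs was higher without Slh1, 32.3% (30.6 to 34.0%) against 13.1% (11.3 to 15.2%).

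Past the tract, disomes were rare in both strains. Up to the stop codon, 10 lead A sites (35.7 rpm) were found with Slh1 and 60 (131 rpm) without it, a ratio of 3.67 (1.86 to 8.04). In the first 100 nt these were 3 and 38 reads, a ratio of 7.75 (2.46 to 39.2). Of the 60 reads, 21 were 54 nt RPFs, against 1 of the 10, a difference of 25 percentage points (-7.29 to 40.1) that counting error alone could give. The 46 nt ends past the tract were 20 and 60 reads, 71.5 and 131 rpm, a ratio of 1.84 (1.09 to 3.22). No single position held more than 5 reads. The highest of *slh1Δ dom34Δ ski2Δ* were 34 and 36 for lead A sites, within 2 codons of the tract, with 5 reads each and none in *dom34Δ ski2Δ*. The 21 and 28 nt monosome RPFs past the tract made up 0.642 to 0.842% of those on the reporter with Slh1 and 1.49 to 1.71% without it, against 0.0545% (0.0296 to 0.1003%) and 0.178% (0.138 to 0.229%) of the lead A sites.

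The reporter trace begins at the start codon, and its first 47 nt, the distance from the start of an RPF to the lead A site, held 2 and 1 lead A sites, so disomes at the start codon are not described here. On the stop codon there was no lead A site in either library, which allows up to 10.7 rpm with Slh1 and 6.56 rpm without it. The 46 nt ends there were 2 and 4 reads. Disomes with the lead ribosome on the stop codon were thus not detectable at this depth.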

How the data were processed

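The authors trimmed reads, removed those of ribosomal and non-coding RNA, aligned the rest with STAR to sacCer3 (R64), allowing mismatches, and kept reads with a single place. How the reporter was joined to the genome is not given in the sources used here. They deposited, for each library, the RPM (rpm, reads scaled to the library) at each nt of the reporter. 18 columns were matched to samples by name, 6 of them disome columns. The 6 columns of other strains that match no sample by name were not used. All deposited values (100%) were whole multiples of 1 read (tolerance 0.1 reads), and the reads and depths were recovered from this step.

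Sums are given as ratios of rpm with exact conditional Poisson intervals, shares with Wilson intervals and their differences with Newcombe intervals (95%). Codons were counted past 2-fold with at least 20 reads in both libraries together. With 1 disome library per strain, no test between strains was made and no p is given. The alternatives were other scales, a queue of 150 nt, leaving out the highest positions, A sites moved by 1 nt, log2(reads + 1), and other limits for codons. Named positions are the 3 highest of each library, for 46 nt ends and for lead A sites, in each of the far upstream part, the queue, the tract and the part after it, with the 12 CGA codons, the 2A site, the start and the stop codon. The members and these rules were chosen with earlier results of these data known. The 12 nt stretches and the codons at -9 to -4 were picked after seeing their values. The recovery of reads, the ratio intervals, the shifted correlations and the codon counts were tested on simulated reads, and the Newcombe interval on fixed counts. Python 3.11.15, numpy 2.4.6, scipy 1.17.1 and biopython 1.88 were used.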

Additional observations from a re-analysis of the deposited data

How the results depend on the processing

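No paired analysis was possible because each strain has 1 disome library and no test was made between strains. The 46 nt ratio of the queue, 5.31, was 3.40 as a share of the disome RPFs on the reporter, 4.38 per lead A site far upstream, 4.85 in a queue of 150 nt and 4.31 without the highest position of each library. The ratio of lead A sites in the queue, 1.12, turned to 0.714, 0.921 and 0.954 under the first 3 of these, and was 1.13 under the last. The ratio on the tract, 1.16, turned to 0.744 and 0.959 on the other 2 scales, and was 1.012 with A sites moved 1 nt upstream. The ratio past the tract, 3.67, lay between 2.35 and 3.47 under its alternatives.

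The 54 nt share of the tract without Slh1 was 74.7% on CGA codons 2 to 5 against 57.1% on all 12, where the first codon counts, so that the difference between the strains changed sign. The 46 nt share of the queue without Slh1 was 38.6% in 150 nt, and without the highest position it was 10.2% with Slh1 and 30.4% without it. The share of 46 nt ends on the first nt of a codon was 67.9 and 75.3% without the 3 highest positions, and 70.7 and 78.8% far upstream. That of lead A sites, 23.2 and 25.01%, was 28.5 and 28.8% and then 28.6 and 28.9%.

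The best distance within a library, searched from 15 to 75 nt, depended on the scale. Values of 15 and 75 nt are the ends of this search and mark no spacing. With log2(reads + 1) it was 15 nt instead of 75 nt for 46 nt ends and 15 nt instead of 61 nt for lead A sites with Slh1, and 18 nt instead of 51 nt and 15 nt instead of 24 nt without it. Past 3-fold, 39 codons were higher for lead A sites and 0 were lower for 46 nt ends. As shares of the reporter, 37 codons were higher and 19 lower for lead A sites, and 7 were lower for 46 nt ends. The depth, with 10 lead A sites past the tract in *dom34Δ ski2Δ*, limits what can be said there, and the difference between the strains has no replicate check. After seeing the data, the 12 nt stretch at -30 was moved by 1 nt either way, which gave 72.9 to 77.9% with Slh1 and 36.8 to 37.01% without it, and the share of lead A sites more than 90 nt from the tract was taken without the 3 highest positions, which gave 16.98 and 48.2%.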
